A study of Homo sapiens with 12 samples.

Results

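The genes described here are 58 genes of mitosis and the G2/M transition: mitotic kinases and cyclins, kinesins, centromere and kinetochore genes, spindle checkpoint genes and genes of cytokinesis and chromosome structure. They were chosen by name, as a fixed list of symbols, and each was found by its NCBI gene identifier among the 17818 genes of the series. The study overexpressed USP51, a deubiquitinating enzyme, in 2 established human lines of colorectal cancer, SW480 and HCT116, and set each beside its own vector control (NC). The labels give 12 libraries, 3 for each of the 4 groups (SW480 NC, SW480 USP51-OE, HCT116 NC and HCT116 USP51-OE), all from cells grown in DMEM with serum and given no further treatment. They do not say whether an overexpressing line is 1 clone or a pool. Values are the authors' group means, since no label ties a column of a single library to its sample. The means are named by line with a letter, C or E, read here as control and USP51 overexpression. No label defines these letters, and every direction rests on that reading, though USP51 itself was higher in the E means of both lines. Each value is therefore an authors' mean with no standard deviation and no n, no difference was tested, and no difference can be set against the spread between replicates.

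A dividing cell commits to mitosis when cyclin B and CDK1 form an active kinase, which CDC25 phosphatases switch on. Spindle microtubules, moved by kinesins, then capture chromosomes at kinetochores, and the spindle checkpoint holds back the anaphase-promoting complex until every chromosome is attached. Most of these genes are transcribed late in the cell cycle under the control of B-MYB, FOXM1 and the MuvB complex, so that their RNA is a common readout of how much of a culture is cycling. In colorectal cancer cell lines, which grow continuously, their transcripts are abundant.

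The totals of estimated counts lay between 15506686 and 15920306 per group mean. USP51 itself was at 0.513 TPM (a level per length of transcript, scaled to a common total) and 25.7 TPM in SW480, and in HCT116 at 0 TPM without and 40.8 TPM with the construct. Of 10 epithelial markers 8 reached 1 TPM in each of the 4 groups, with EPCAM at 382 and 402 TPM in SW480, 411 and 392 TPM in HCT116. The summed level of 7 fibroblast markers was 1.52 to 15.4 TPM, with COL1A1 alone at 1 TPM or more. That of 6 leukocyte markers was 6.38 to 8.15 TPM, of which CD68 had 3.98 to 6.96 TPM, while PTPRC was at 0 in 3 groups. KRT20 and CDX1, markers of mature colon epithelium, were below 1 TPM in SW480, and in HCT116 CDX1 and VIL1 were. In pairs of values the control comes first. Count ratios are of counts divided by the group's total, and the parentheses after them hold exact 95% intervals, which take each mean for a single library's count and leave out all error but that of counting. Differences are given as log2((TPM with USP51 + 1) / (control TPM + 1)), called the log2 ratio.

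In SW480 the mitotic genes were lower with USP51 nearly without exception. Of the 58 genes, 57 lay below their control value, against 61.1% of the 12175 genes compared, and all 58 reached 1 TPM, so that none was lost to the filter on low values. Their median log2 ratio was -0.32, a level 0.802 times that of controls, beside -0.04 over all genes compared. Summed over the 58 genes, SW480 controls had 6585 TPM, and SW480 cells with USP51 had 5406 TPM. In bulk RNA, fewer cells in these phases and less RNA per cell cannot be told apart. An earlier look at these data had shown a shorter list of proliferation genes to be lower in SW480, so the direction is not independent evidence.

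Most differences were small. With USP51 27 of the 58 genes were at least 20% lower on the TPM + 1 scale, against 6.25% of all genes compared, and 2 were at least 1.5-fold lower, against 0.879%. No gene was at least 25% higher, the same distance upward on the log2 scale, against 2.5% of all genes, or 1.5-fold higher, against 0.534%. The count of 27 depends on the exact limit: at -0.3219 on the log2 scale, the gene just inside was KIF2C at -0.3253 and the gene just outside was NCAPG at -0.3215. In CPM, counts scaled to a common total, the number was 19, against 5.38% of all genes in that unit. It was 14 with RLE scaling factors, against 4.93%, and 14 in FPKM, against 3.99%. In all, 12 genes passed this limit under the reported setting and all 8 alternatives of scaling, pseudocount, filter and transcript set. The like count over all genes was not made, so the 12 have no background share beside them. The scaling also shifts the whole distribution. In CPM, with and without factors, 45.8% to 49.8% of all genes lay below control, and 57 of the 58 mitotic genes did so under each of those settings. The median of the 58 genes lay 0.27 to 0.30 below that of all genes under every alternative on the log2 scale.

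**Figure D1:**
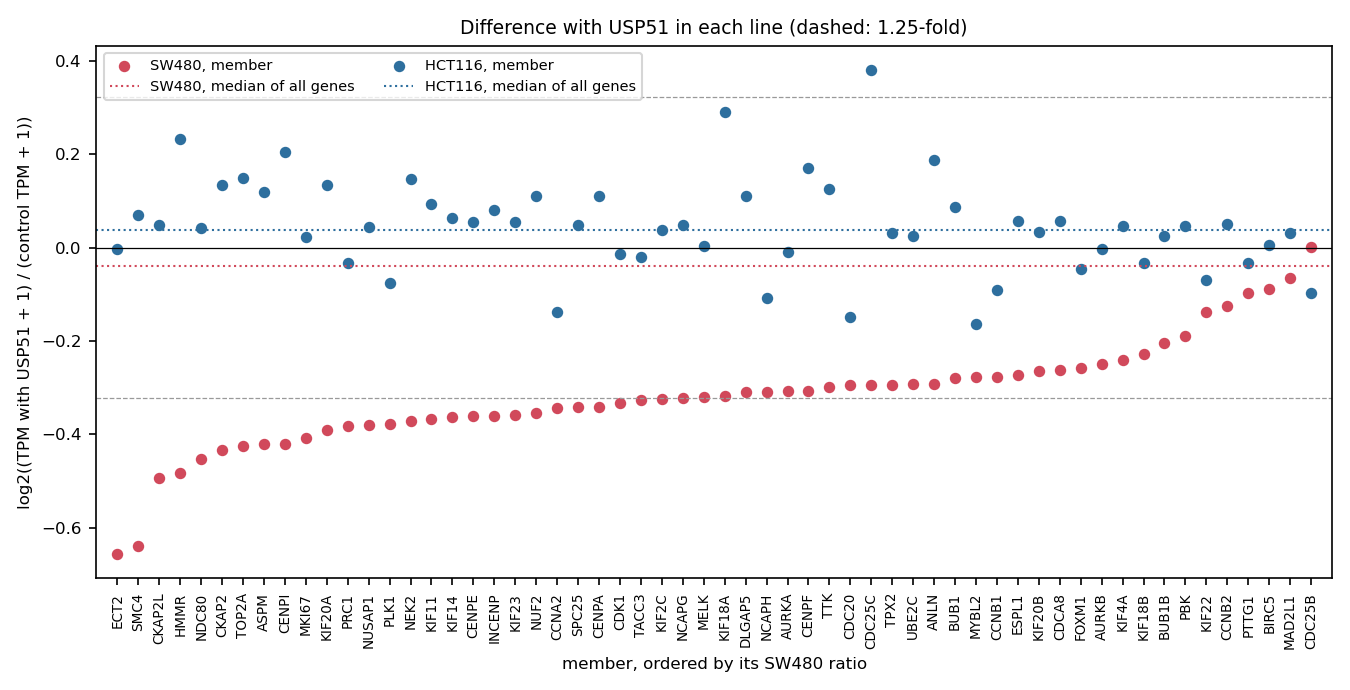
Log2 ratio with USP51 of each of the 58 genes (vertical axis) in SW480 (red) and HCT116 (blue), ordered by the SW480 value, each point a ratio of 2 authors' means. Dotted lines mark the median over all genes compared in each line, and dashed lines 20% below and 25% above control. In SW480 57 of 58 points lie below 0, and in HCT116 the points scatter around the median of all genes.

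The largest differences were those of ECT2 and SMC4, both on chromosome 3. Whether their shared chromosome has a part in these differences was not tested. ECT2 (NCBI gene 1894, chromosome 3, 172750726 to 172829265, GRCh38), the exchange factor that activates RhoA to build the contractile ring, was at 82.7 and 52.1 TPM in SW480, a log2 ratio of -0.66 and a count ratio of 0.650 (0.615 to 0.686). In HCT116 it was at 68.9 and 68.8 TPM. SMC4 (NCBI gene 10051, chromosome 3, 160399650 to 160434953), a core ATPase subunit of condensin, was at 132 and 84.4 TPM in SW480, 67.5 and 70.9 TPM in HCT116, with a log2 ratio of -0.64 and a count ratio of 0.659 (0.634 to 0.684) in SW480. Both were thus at similar levels in the pair of HCT116 groups and lower with USP51 in SW480. At the other end, CDC25B, which dephosphorylates CDK1 at mitotic entry, was the gene not below control, at 149 and 149 TPM in SW480 with a count ratio of 1.02 (0.983 to 1.07). The counting interval lay below 1 for 53 of the 58 genes in SW480, against 14.2% of all genes compared. The exceptions besides CDC25B were MAD2L1, BIRC5, PTTG1 and KIF22. Intervals are narrower at higher counts, so that share is not a like background. The median of the mean TPM over the 4 groups was 70.4 for the 58 genes and 18.4 for all genes compared in SW480.

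**Figure D2:**
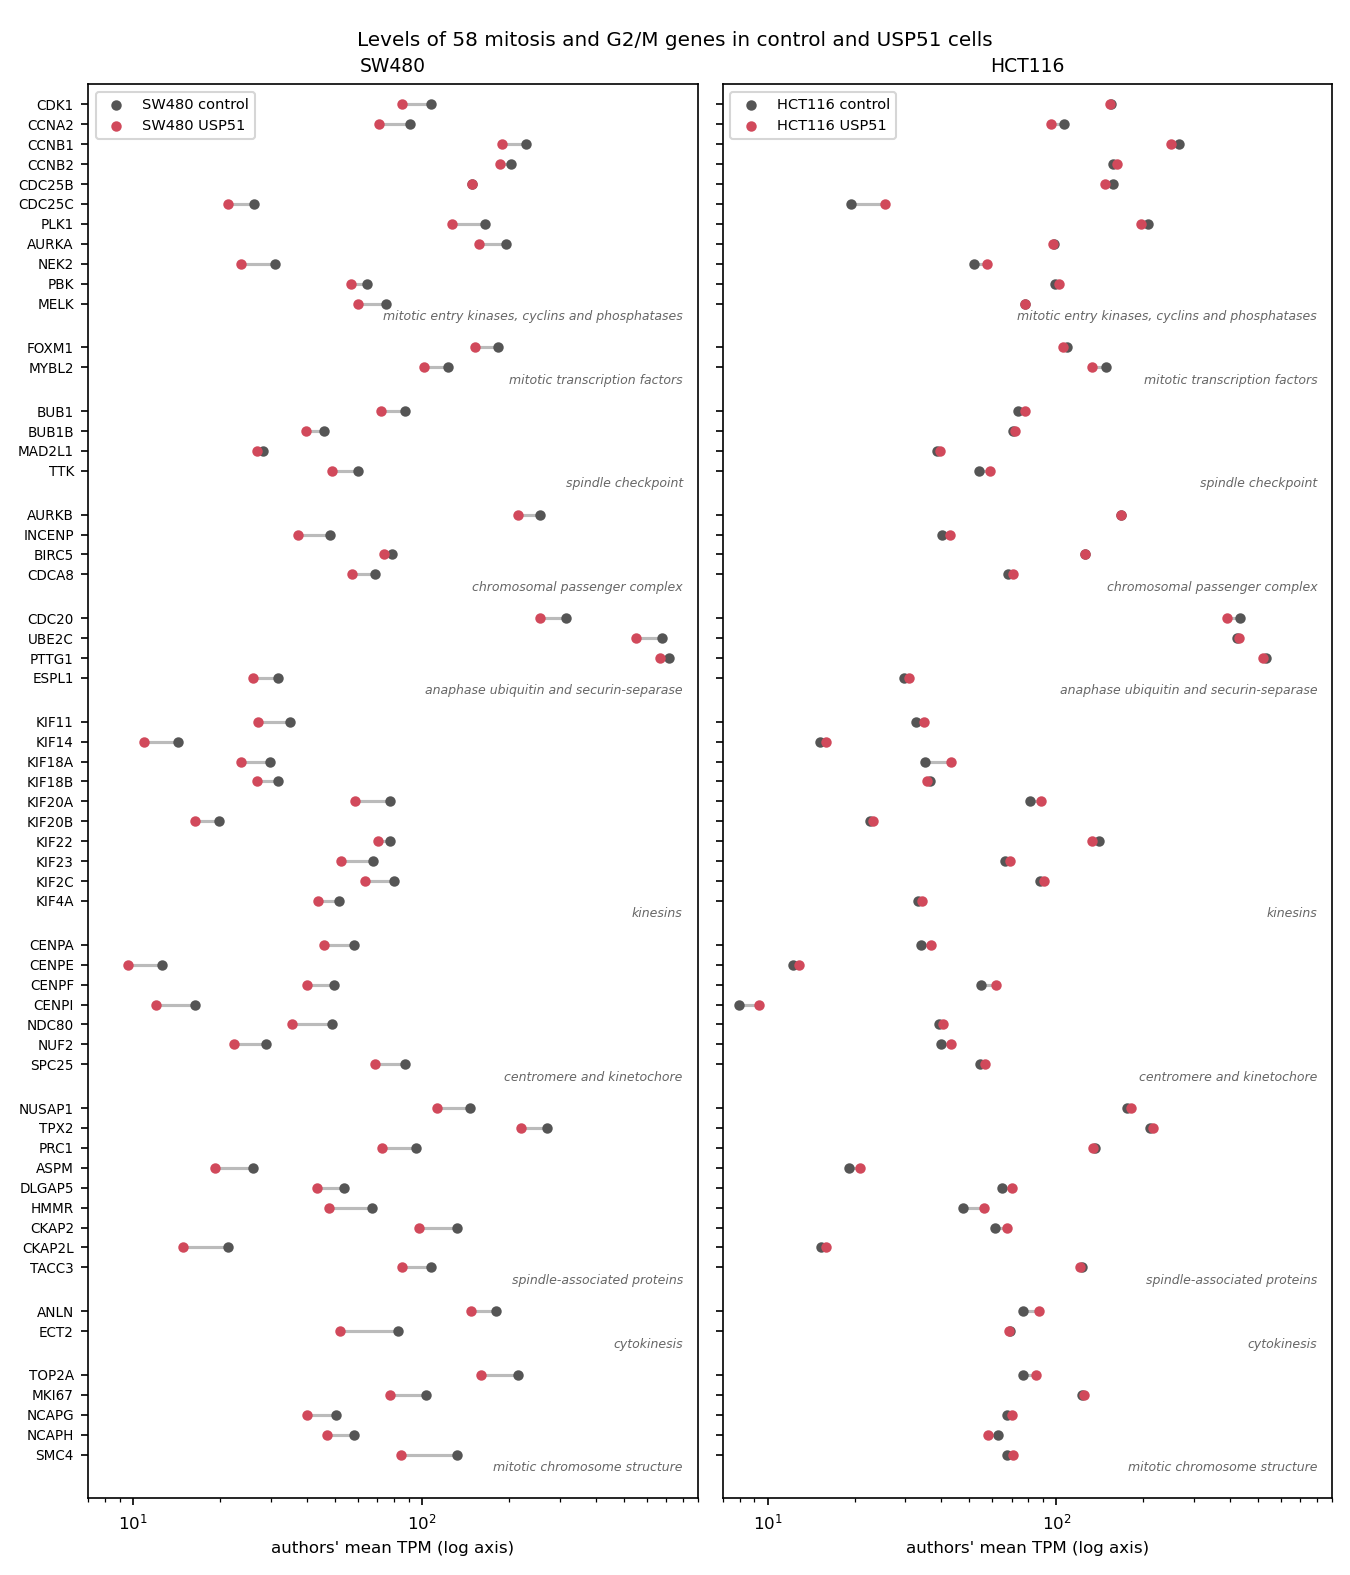
Authors' mean TPM (horizontal, log axis) of the 58 genes in control cells (grey) and cells with USP51 (red), SW480 on the left and HCT116 on the right, grouped by role. In SW480 the red point lies left of the grey one for every gene but CDC25B, while in HCT116 the points of a pair are closer for most genes and lie in either order.

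The genes that start mitosis were moderately lower in SW480, 10 of 11 below control with a median of -0.31. CDK1, the mitotic cyclin-dependent kinase, was at 107 and 84.96 TPM in SW480, 154 and 153 TPM in HCT116. Of its cyclins, CCNA2 was at 90.7 and 71.2 TPM in SW480, 106 and 96.1 TPM in HCT116, CCNB1 at 229 and 189 TPM in SW480, 266 and 249.6 TPM in HCT116, and CCNB2 at 203 and 186 TPM in SW480, 157 and 162 TPM in HCT116. The B-type cyclins thus differed from each other in SW480, with log2 ratios of -0.28 for CCNB1 and -0.13 for CCNB2. PLK1, the polo kinase that drives mitotic entry and spindle assembly, was at 166 and 128 TPM in SW480, 207 and 197 TPM in HCT116, and its SW480 log2 ratio of -0.38 was the lowest of the 11. NEK2, a centrosome kinase, followed at 30.9 and 23.6 TPM in SW480, 51.9 and 57.6 TPM in HCT116. AURKA, the kinase of spindle poles, was at 196 and 158 TPM in SW480, 98.2 and 97.6 TPM in HCT116. MELK and PBK, 2 kinases that are high in dividing cells, were at 75.1 and 60.03 TPM in SW480, 77.9 and 78.02 TPM in HCT116, and at 64.6 and 56.6 TPM in SW480, 99.2 and 102 TPM in HCT116. The phosphatase gene CDC25C was at 26.2 and 21.2 TPM in SW480, 19.4 and 25.5 TPM in HCT116, so its means differ in opposite directions in the lines, under every alternative too, on control counts of 489 and 361. CDC25B was at 158 and 147 TPM in HCT116.

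The transcription factors that switch on these genes were lower by a similar amount. FOXM1 (NCBI gene 2305, chromosome 12, 2857680 to 2877174), a forkhead factor, was at 183 and 153 TPM in SW480, 109 and 105 TPM in HCT116. MYBL2, which encodes B-MYB, was at 123 and 101 TPM in SW480, 149 and 133 TPM in HCT116. Their SW480 log2 ratios were -0.26 and -0.28, and both lay below control in HCT116 under every scaling too, at -0.05 and -0.16.

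Among spindle checkpoint genes, all 4 lay below control in SW480 with a median of -0.24, but unequally. BUB1 and TTK, kinases that recruit checkpoint proteins to kinetochores, were at 87.6 and 71.95 TPM in SW480, 73.5 and 78.1 TPM in HCT116, and at 60.1 and 48.7 TPM in SW480, 53.7 and 58.7 TPM in HCT116. BUB1B, which encodes BUBR1, was at 45.9 and 39.8 TPM in SW480, 70.7 and 71.9 TPM in HCT116. MAD2L1, the subunit that sequesters CDC20, was nearly level at 28.2 and 26.9 TPM in SW480, 38.5 and 39.4 TPM in HCT116, with an SW480 count ratio of 0.983 (0.914 to 1.06). The chromosomal passenger complex, which corrects faulty attachments, showed a similar spread around a median of -0.26. Its kinase gene AURKB was at 256 and 215 TPM in SW480, 168 and 167 TPM in HCT116, and its scaffold gene INCENP at 47.9 and 37.1 TPM in SW480, 40.3 and 42.6 TPM in HCT116. CDCA8, which encodes borealin, was at 68.8 and 57.2 TPM in SW480, 67.9 and 70.7 TPM in HCT116. BIRC5, which encodes survivin, was at 78.5 and 73.8 TPM in SW480, 125 and 126 TPM in HCT116, an SW480 log2 ratio of -0.09 beside -0.36 for INCENP.

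The genes of anaphase onset include the most abundant of the set, and all 4 lay below control in SW480 with a median of -0.28. CDC20, the activator of the anaphase-promoting complex, was at 315 and 257 TPM in SW480, 433 and 390.0 TPM in HCT116. UBE2C, the ubiquitin-conjugating enzyme of that complex, was at 675 and 551 TPM in SW480, 422 and 429 TPM in HCT116. PTTG1, which encodes securin, was at 717 and 669 TPM in SW480, 533 and 521 TPM in HCT116, and separase (ESPL1), which securin inhibits, at 31.7 and 26.05 TPM in SW480, 29.6 and 30.8 TPM in HCT116. Securin and its target thus had SW480 log2 ratios of -0.10 and -0.27.

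All 10 kinesins lay below control in SW480, 5 of them by at least 20%, with a median of -0.32. The number at least 20% lower was 4 in CPM, 2 with TMM or RLE factors and 1 in FPKM. KIF20A, the kinesin that carries the passenger complex to the midzone, was at 77.2 and 58.7 TPM in SW480, 80.8 and 88.7 TPM in HCT116, with an SW480 count ratio of 0.784 (0.736 to 0.834). KIF11, which pushes spindle poles apart, was at 35.04 and 26.96 TPM in SW480, 32.6 and 34.9 TPM in HCT116. KIF23, a subunit of centralspindlin, was at 67.8 and 52.6 TPM in SW480, 66.6 and 69.2 TPM in HCT116, with an SW480 log2 ratio of -0.36. Its curated transcripts by themselves gave -0.01 and held 46.9% of its control TPM. KIF14, a partner of citron kinase, was at 14.3 and 10.9 TPM in SW480, 15.2 and 15.9 TPM in HCT116. KIF2C, a microtubule depolymerase at centromeres, was at 79.97 and 63.6 TPM in SW480, 88.01 and 90.4 TPM in HCT116. KIF18A, which dampens chromosome oscillations, was at 29.7 and 23.6 TPM in SW480, 35.1 and 43.1 TPM in HCT116, and its relative KIF18B at 31.6 and 26.9 TPM in SW480, 36.5 and 35.7 TPM in HCT116. KIF4A, a chromokinesin, was at 51.7 and 43.6 TPM in SW480, 33.1 and 34.2 TPM in HCT116, and KIF20B, which acts at the midbody, at 19.9 and 16.4 TPM in SW480, 22.7 and 23.2 TPM in HCT116. KIF22, another chromokinesin, differed least of the 10, at 77.3 and 70.2 TPM in SW480, 140.0 and 133 TPM in HCT116.

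The centromere and kinetochore genes were lower in SW480 in all 7 cases, with log2 ratios between -0.45 and -0.31. In 6 cases the level was at least 20% lower, against 6.25% of all genes compared. In CPM, with or without factors, 3 were, against 4.93% to 5.38% of all genes, and in FPKM 2, against 3.99%. In HCT116 all 7 lay above control, where 39.2% of all genes lay below it. With TMM or RLE factors 2 of the 7 lay below it, against 51.3% and 50.6% of all genes. NDC80, the microtubule-binding subunit of the outer kinetochore, was at 48.9 and 35.5 TPM in SW480, 39.3 and 40.5 TPM in HCT116, with an SW480 count ratio of 0.748 (0.678 to 0.825). Its partners NUF2 and SPC25 were at 28.7 and 22.2 TPM in SW480, 39.97 and 43.2 TPM in HCT116, and at 87.6 and 68.95 TPM in SW480, 54.6 and 56.5 TPM in HCT116. The inner kinetochore gene CENPI was at 16.3 and 11.9 TPM in SW480, 7.95 and 9.31 TPM in HCT116. CENPA, the histone variant that marks centromeres, was at 58.1 and 45.7 TPM in SW480, 34.00 and 36.8 TPM in HCT116. The large kinetochore proteins CENPE, a kinesin motor, and CENPF were at 12.6 and 9.60 TPM in SW480, 12.3 and 12.8 TPM in HCT116, and at 49.5 and 39.9 TPM in SW480, 54.99 and 62.00 TPM in HCT116.

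Spindle-associated proteins had a lower median than most role groups, at -0.38 in SW480, with 7 of 9 genes at least 20% lower. CKAP2L was at 21.4 and 14.9 TPM in SW480, 15.4 and 15.9 TPM in HCT116, and its relative CKAP2 at 132 and 97.8 TPM in SW480, 61.2 and 67.3 TPM in HCT116. HMMR, a spindle protein and hyaluronan receptor, was at 66.9 and 47.6 TPM in SW480, 47.4 and 55.9 TPM in HCT116, with count ratios of 0.734 (0.685 to 0.787) in SW480 and 1.16 (1.08 to 1.246) in HCT116. ASPM, which focuses spindle poles, was at 25.98 and 19.1 TPM in SW480, 19.2 and 20.9 TPM in HCT116. NUSAP1 and PRC1, which bundle microtubules, were at 147 and 112 TPM in SW480, 176 and 181 TPM in HCT116, and at 95.3 and 72.9 TPM in SW480, 137 and 133 TPM in HCT116. TPX2, the activator of Aurora A, was at 271 and 221 TPM in SW480, 211 and 216 TPM in HCT116. DLGAP5 and TACC3, which stabilise kinetochore fibres, were at 53.7 and 43.1 TPM in SW480, 64.9 and 70.1 TPM in HCT116, and at 107 and 85.4 TPM in SW480, 122 and 121 TPM in HCT116. The 5 genes of chromosome structure had a median of -0.41, and all lay below control in SW480. Of these, TOP2A, which untangles sister chromatids, was at 215 and 160.1 TPM in SW480, 76.5 and 84.96 TPM in HCT116. MKI67, which encodes the Ki-67 antigen that coats mitotic chromosomes, was at 103 and 77.8 TPM in SW480, 123 and 125 TPM in HCT116. The condensin subunit genes NCAPG and NCAPH were at 50.3 and 40.04 TPM in SW480, 67.7 and 70.03 TPM in HCT116, and at 58.1 and 46.7 TPM in SW480, 62.7 and 58.1 TPM in HCT116, and ANLN, which encodes anillin of the contractile ring, at 181 and 147 TPM in SW480, 76.5 and 87.3 TPM in HCT116.

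In HCT116 the same 58 genes were close to their control values. Of them, 17 lay below control, against 39.2% of the 12393 genes compared, and 41 above. Their median log2 ratio was 0.05 beside 0.04 over all genes, and their summed level was 5896 and 5905 TPM. No gene was at least 20% lower, against 1.11% of all genes, and 1 was at least 25% higher, CDC25C, against 8.58%. None was 1.5-fold lower or higher, against 0.145% and 1.96%. The count ratio of CDC25C was 1.28 (1.11 to 1.47), and it was not past 25% with TMM or RLE factors or with curated transcripts alone. The split of directions in HCT116 depends on the scaling. With TMM factors 33 of the 58 genes and 51.3% of all genes lay below control, and with RLE factors 31 of the 58 and 50.6%. Across the reported setting and 8 alternatives, 25 genes lay above control throughout and 17 below it throughout. These counts were not made over all genes, so they cannot be set against a background share.

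In HCT116 too, counting intervals tend to be narrower for the 58 genes. Their median mean TPM over the 4 groups was 70.4, against 17.85 for all genes compared there. The counting interval lay above 1 for 10 of the 58 genes in HCT116, against 17.1% of all genes compared, and below 1 for 9, against 11.7%. Those above were CDC25C, KIF18A, KIF20A, CENPF, CENPI, ASPM, HMMR, CKAP2, ANLN and TOP2A, for instance KIF18A at a ratio of 1.18 (1.08 to 1.28) and ANLN at 1.12 (1.07 to 1.17). Those below were CCNA2, CCNB1, CDC25B, PLK1, FOXM1, MYBL2, CDC20, KIF22 and NCAPH, for instance MYBL2 at 0.874 (0.834 to 0.916) and CDC20 at 0.885 (0.853 to 0.917). In HCT116 Spearman's rho between log2 ratio and mean TPM was -0.55 across the 58 genes and -0.28 across all genes compared, and in SW480 it was 0.25 and 0.07. These coefficients are across genes of the same libraries, which are not independent, and describe these means only.

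The response of each gene was set side by side in the lines as the SW480 minus the HCT116 log2 ratio. It was negative for 57 of the 58 genes, against 65.0% of the 11332 genes measured in both lines, and at least 20% lower as a ratio of ratios for 33, against 15.5%. It was at least 25% higher for none, against 2.67%. The median difference was -0.37, beside -0.08 over all genes. It was most negative for HMMR (-0.72), SMC4 (-0.71), CDC25C (-0.67) and ECT2 (-0.65), and positive for CDC25B (0.10). The difference between the lines was not tested. By role, its median ran from -0.16 for the pair of transcription factors and -0.23 for the 4 anaphase genes to -0.46 for the 7 centromere genes and -0.57 for ECT2 and ANLN.

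Without USP51 the lines expressed the set at similar levels. Of the 58 genes, 29 were higher in SW480 controls than in HCT116 controls, against 46.7% of 13033 genes, and the median log2 ratio was -0.02, beside -0.08 over all genes. With TMM or RLE factors that median was 0.10. Spearman's rho between the control levels of the lines was 0.89 over the 58 genes, a description of levels that share library preparation and gene lengths. In SW480 controls 12 genes were at least 1.5-fold higher, against 22.6% of all genes, led by TOP2A (215 TPM in SW480 controls, 76.5 TPM in HCT116 controls), ANLN, CKAP2 and AURKA. In HCT116 controls 5 were at least 1.5-fold higher, against 27.0%: KIF22, NEK2, BIRC5, BUB1B and PBK. The order of levels per length was alike at the top, with PTTG1, UBE2C and CDC20 among the highest in both lines, and CENPE, KIF14, KIF20B, CENPI and CKAP2L among the lowest.

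**Figure D3:**
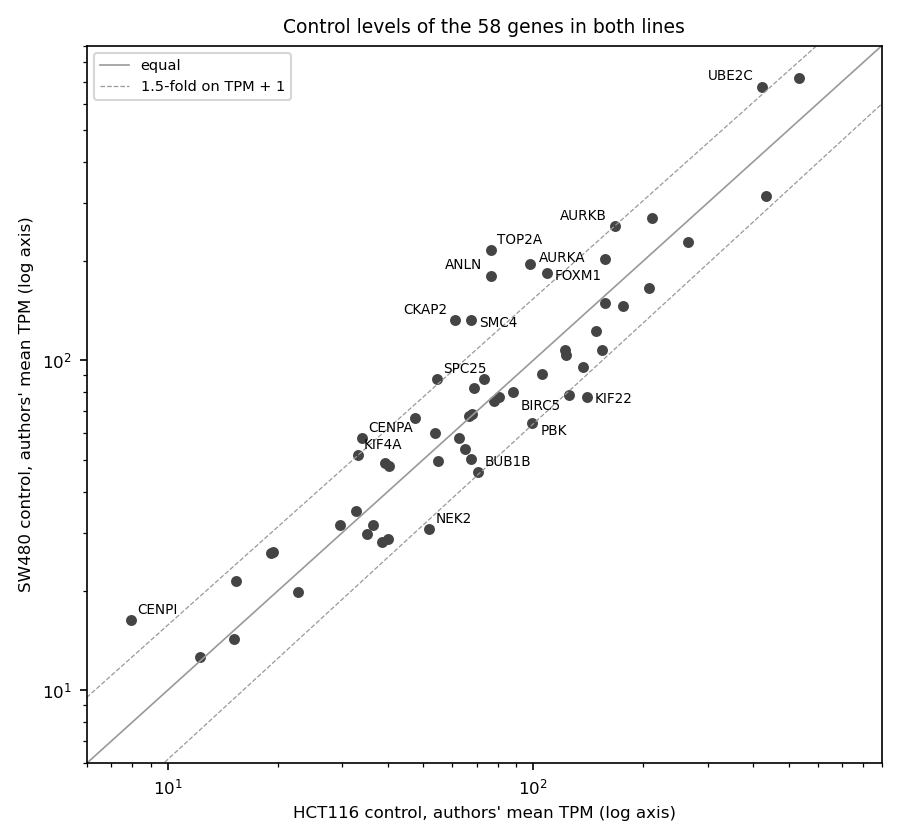
Authors' mean TPM of the 58 genes in HCT116 controls (horizontal, log axis) and SW480 controls (vertical, log axis), with the line of equality and dashed lines at 1.5-fold on TPM + 1. The named genes lie past 1.5-fold, 12 of them higher in SW480 and 5 higher in HCT116.

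Other cell-cycle genes were examined from lists that do not overlap the 58. The shares of all genes compared to read them against are 61.1% below control and 6.25% at least 20% lower in SW480, and 39.2% below control in HCT116. Among 58 further mitotic genes, 54 lay below control in SW480, 14 of them by at least 20%, with a median of -0.23, and in HCT116 29 lay below control with a median of 0.01. Across the alternatives 51 to 54 lay below control in SW480, against 45.8% to 61.1% of all genes. In HCT116 28 to 37 did, against 37.7% to 51.3%. The lowest in SW480 were KIF15, a kinesin that backs up KIF11, at 15.5 and 10.3 TPM, the Aurora A cofactor gene BORA at 20.5 and 14.1 TPM and FAM83D, a spindle protein gene, at 125 and 89.00 TPM. The highest were the checkpoint gene MAD1L1 at 47.3 and 54.2 TPM, TRIP13 at 88.00 and 94.1 TPM and CENPW at 54.5 and 58.03 TPM. In HCT116 the ends of this list were CDC25A at 20.7 and 17.2 TPM and NCAPD2, a condensin subunit gene, at 104 and 128 TPM. Subunits and regulators of the anaphase-promoting complex, most of which are made throughout the cell cycle, had a median of -0.02 in SW480, with 11 of 17 below control, near the share of all genes. That direction flips with the scaling, since 6 of 17 lay below control in CPM, with any factor, and in FPKM, where 45.8% to 49.8% of all genes did. The lowest of them was FBXO5, which encodes the inhibitor EMI1, at 36.4 and 29.2 TPM.

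Genes of S phase and the G1/S transition had a median of -0.11 in SW480 with all 39 below control and 1 at least 20% lower, RFC4 of the clamp loader, at 103 and 73.7 TPM. RRM2, a ribonucleotide reductase subunit gene, followed at 332 and 267 TPM, and MCM2, a helicase subunit gene, at 154 and 124 TPM. The number below control was 31 with RLE factors, against 45.8% of all genes, and 33 in CPM, against 49.8%. That all 39 lay below control thus depends on the scaling, which shifts all genes as well. In HCT116 their median was -0.06 with 32 of 39 below control, beside 17 of 58 for the mitotic genes. The 2 lists thus stood at -0.11 and -0.32 in SW480 and at -0.06 and 0.05 in HCT116, and the differences between the lists were not tested.

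Of 21 regulators that act on cell-cycle promoters, 20 lay below control in SW480 and 10 in HCT116, with medians of -0.12 and 0.01. With RLE factors 17 and 12 did so, against 45.8% and 50.6% of all genes. The MuvB subunit genes LIN9, LIN37, LIN52 and LIN54 were at 12.4 and 11.3 TPM, 19.4 and 18.5 TPM, 11.01 and 9.97 TPM and 10.4 and 8.37 TPM in SW480. In HCT116 they were at 14.3 and 11.6 TPM, 19.99 and 21.2 TPM, 9.86 and 9.38 TPM and 9.90 and 10.4 TPM. RB1, which encodes the retinoblastoma protein, was at 49.5 and 37.6 TPM in SW480, 24.1 and 26.03 TPM in HCT116. TFDP2, a dimer partner of E2F factors, was at 15.4 and 11.2 TPM in SW480, 17.9 and 19.99 TPM in HCT116. The activator genes E2F1, E2F2 and E2F3 were at 61.9 and 61.1 TPM, 3.70 and 3.29 TPM and 15.4 and 15.5 TPM in SW480. In HCT116 they were at 34.9 and 30.9 TPM, 17.8 and 16.2 TPM and 26.5 and 26.7 TPM. The repressor genes E2F4, E2F5 and E2F6 were at 93.4 and 89.4 TPM, 13.5 and 12.8 TPM and 25.9 and 22.7 TPM in SW480. The HCT116 means of these repressors were 128 and 115 TPM, 13.7 and 12.3 TPM and 20.4 and 21.3 TPM. The atypical repressors E2F7 and E2F8 were at 6.15 and 4.74 TPM in SW480, 9.87 and 10.4 TPM in HCT116, and at 22.8 and 18.4 TPM in SW480, 20.6 and 16.6 TPM in HCT116. E2F7 had an SW480 log2 ratio of -0.32 and a count ratio of 0.786 (0.668 to 0.923).

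**Figure D4:**
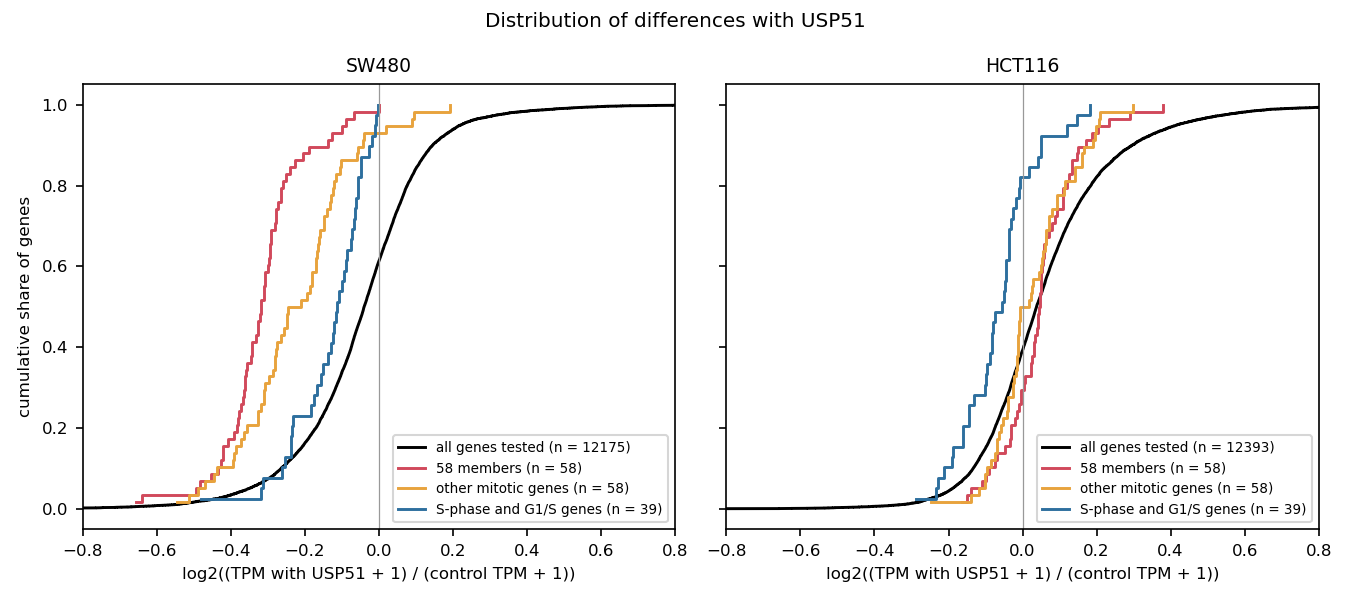
Cumulative share of genes (vertical) by log2 ratio with USP51 (horizontal) in SW480 and HCT116, for all genes compared (black), the 58 genes (red), 58 other mitotic genes (orange) and 39 S-phase and G1/S genes (blue). In SW480 the red curve lies to the left of the others through most of its range, at a median of -0.32 against -0.04 for all genes, and in HCT116 it crosses the black curve near its median of 0.05.

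Promoters were compared because these genes differed together in SW480, and the 3 genes with the lowest and the 3 with the highest SW480 log2 ratio for which RefSeq gives a promoter are shown. Each sequence is the 250 bases before the gene's start in RefSeq (GRCh38.p14), 5′ to 3′ on the gene's strand. A gene's start there need not be the start most used in these cells. Capitals mark the cell-cycle genes homology region (CHR), searched as TTTGAA or TTCGAA, and the CCAAT box, searched as CCAAT, on both strands. In textbook accounts MuvB complexes bind the CHR, and NF-Y binds the CCAAT box.
ECT2: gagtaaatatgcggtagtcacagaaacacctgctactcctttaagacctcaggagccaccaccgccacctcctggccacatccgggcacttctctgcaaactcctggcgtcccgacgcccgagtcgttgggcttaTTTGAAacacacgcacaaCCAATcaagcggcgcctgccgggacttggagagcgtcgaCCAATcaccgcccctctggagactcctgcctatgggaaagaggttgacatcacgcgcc
SMC4: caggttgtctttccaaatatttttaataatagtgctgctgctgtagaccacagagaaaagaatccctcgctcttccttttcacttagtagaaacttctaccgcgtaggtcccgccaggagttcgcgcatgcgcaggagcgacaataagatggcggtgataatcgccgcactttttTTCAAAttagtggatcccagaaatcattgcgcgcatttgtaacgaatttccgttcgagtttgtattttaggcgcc
CKAP2L: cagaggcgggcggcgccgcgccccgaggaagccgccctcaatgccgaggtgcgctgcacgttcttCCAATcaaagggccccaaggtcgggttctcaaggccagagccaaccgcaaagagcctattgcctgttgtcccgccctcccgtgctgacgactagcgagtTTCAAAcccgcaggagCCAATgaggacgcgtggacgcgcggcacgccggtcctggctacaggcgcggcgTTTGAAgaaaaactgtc
PTTG1: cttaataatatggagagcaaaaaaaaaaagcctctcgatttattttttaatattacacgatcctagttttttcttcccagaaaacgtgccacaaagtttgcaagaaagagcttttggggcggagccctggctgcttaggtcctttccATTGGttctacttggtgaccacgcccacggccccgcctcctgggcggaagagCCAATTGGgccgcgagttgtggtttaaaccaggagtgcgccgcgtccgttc
MAD2L1: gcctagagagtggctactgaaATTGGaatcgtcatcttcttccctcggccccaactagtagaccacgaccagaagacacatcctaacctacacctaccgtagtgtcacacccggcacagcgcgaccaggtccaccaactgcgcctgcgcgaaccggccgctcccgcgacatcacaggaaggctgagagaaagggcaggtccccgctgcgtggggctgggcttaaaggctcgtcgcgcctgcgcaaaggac
CDC25B: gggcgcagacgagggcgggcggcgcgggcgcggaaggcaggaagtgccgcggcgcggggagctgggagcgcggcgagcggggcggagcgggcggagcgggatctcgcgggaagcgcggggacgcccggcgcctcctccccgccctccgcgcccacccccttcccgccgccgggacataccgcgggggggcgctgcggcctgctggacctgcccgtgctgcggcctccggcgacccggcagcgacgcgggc
They lie at chr3:172750476-172750725 (plus strand) for ECT2, chr3:160399400-160399649 (plus strand) for SMC4 and chr2:112764610-112764859 (minus strand) for CKAP2L. PTTG1 has chr5:160421605-160421854 (plus strand), MAD2L1 chr4:120066849-120067098 (minus strand) and CDC25B chr20:3786701-3786950 (plus strand). The first 3, at SW480 log2 ratios of -0.66, -0.64 and -0.49, each hold a CHR in the printed part. The last 3, at -0.10, -0.07 and 0.00, hold none there, but MAD2L1 has a CHR that begins 25 bases after its start. In PTTG1 the CCAAT matches that begin at -51 and -48, on opposite strands, share bases. CDC25B holds neither motif in its window.

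Of the 58 genes, 51 have a promoter in the table, taken for the counts as 300 bases, 250 before and 50 after the start. For CENPI, CKAP2 and AURKB the start used there lies inside the gene's full RefSeq span, and none of these windows held a CHR. A CHR was found in 35 of the 51 (68.6%), against 10.8% of 9966 genes compared in SW480 and 16.6% of all 27305 promoters in the table. A CCAAT box was found in 36 (70.6%), against 36.7% and 35.7%, and both motifs in 29 (56.9%), against 4.63% and 6.58%. Of the CHR matches in the mitotic genes, 38 of 47 lay from 100 bases before the start to the end of the window, against 37.9% of the matches in genes compared in SW480. The 43 further mitotic genes with a promoter had a CHR in 62.8%, and 34 S-phase and G1/S genes in 5.88%. Within the 51 genes the ranges with and without a CHR overlapped. The median SW480 log2 ratio was -0.34 for the 35 genes with a CHR, from -0.66 to -0.07, and -0.32 for the 16 without, from -0.43 to 0.00. A match is a run of letters and not evidence of binding.

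**Figure D5:**
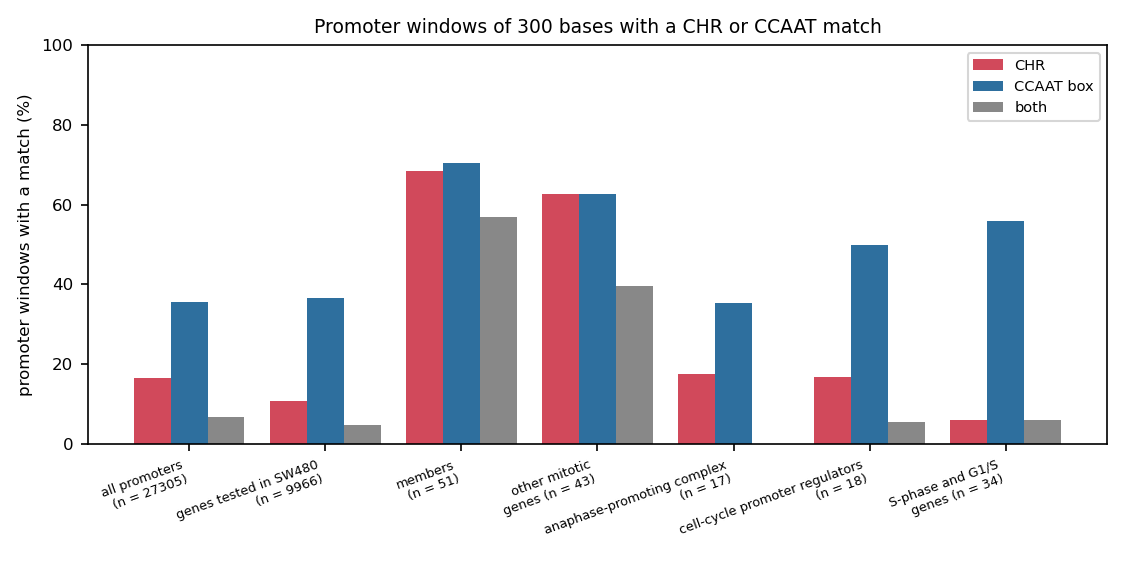
Share of promoter windows of 300 bases (vertical, %) with a CHR match (red), a CCAAT match (blue) or both (grey) in 7 sets of genes, n being the genes with a promoter in the table. The 58 genes (51 with a promoter) and the further mitotic genes stand at 68.6% and 62.8% for the CHR, and the S-phase and G1/S genes at 5.88%.

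The direction in SW480 was shared by most single transcripts. Gene values are sums of these same transcripts, so their counts are not separate support for the counts over genes. Of 233 transcripts of the 58 genes with at least 1 TPM in SW480, 195 lay below control, against 56.6% of 29928 transcripts, with a median log2 ratio of -0.29 beside -0.04. In HCT116 96 of 233 lay below control, against 45.2%, with a median of 0.04. How the authors split reads among transcripts is not given in the sources used here, so values of single transcripts are less certain than those of genes. CDC25B, level as a gene in SW480, was a sum of transcripts that differed in opposite directions. Its most abundant transcript was at 68.1 and 58.3 TPM and the third at 21.7 and 30.2 TPM. ECT2 had 1 leading transcript in SW480, at 50.2 and 29.7 TPM there and 21.8 and 17.6 TPM in HCT116, where another led, at 39.2 and 43.1 TPM. That second transcript was at 9.64 and 10.4 TPM in SW480, so the lower ECT2 level there was that of other transcripts. In SMC4 the leading transcript was at 109 and 70.7 TPM in SW480. Predicted transcripts carried most of NCAPH and NCAPG, whose curated transcripts held 5.67% and 17.6% of the SW480 control TPM.

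The length implied by counts and FPKM had a Spearman rho of -0.12 with the SW480 log2 ratio across all genes compared and -0.26 across the 58 genes, and of 0.21 and 0.31 in HCT116. Of the 58 genes, the 29 shorter than 2754 bases had a median of -0.31 in SW480 and the 29 longer ones -0.32, while all genes compared shorter and longer than that had medians of -0.02 and -0.06. The further mitotic genes had SW480 medians of -0.17 for 36 shorter and -0.28 for 22 longer ones, with a rho of -0.37. In HCT116 12 of the 29 shorter and 5 of the 29 longer genes lay below control. Among all genes compared there, 2931 of 6163 shorter and 1928 of 6230 longer ones did. Some values can hold reads of other genes. KIF4A has a copy, KIF4B, at 95.3% identity, which was at 0.067 TPM or less in every group. LCORL shares part of its sequence with NCAPG and was at 5.17 and 4.92 TPM in SW480, and TRIM59 shares part with SMC4 and was at 6.68 and 4.33 TPM. SPC25 shares stretches with PARP15 and SPIN3, and AURKA and CDC20 have pseudogene copies that were not analysed here. NUSAP1 matches another GENCODE gene over 63.7% of its longest transcript at 99.8% identity. PRC1 matches another over 40.8% at 99.9%, and neither of these other genes was analysed here. Whether reads were counted by strand is not stated, so overlaps such as that of FOXM1 with RHNO1 (85.2 and 67.8 TPM in SW480) or of PBK with ESCO2 (18.3 and 13.2 TPM) are uncertain as well. The part of length and of shared reads in the results was not tested.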

How the data were processed

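RNA of 12 libraries in 4 groups was profiled, per the labels. The submitters' processing notes name TopHat, DESeq 1.32.0 and hg38 without saying what each was used for. How reads were counted, and whether by strand, is not given in the sources used here. As deposited, the table lists 84345 RefSeq transcripts in 3 units, per the file headers. The authors' estimated counts are not divided by depth. The authors' TPM values are scaled by transcript length and to the same total in each column. The authors' FPKM values are scaled by transcript length and depth. The 36 columns of single libraries match no label and were used in no result.

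Transcripts were summed per gene in Python 3.11.15 with pandas 2.3.3. A pseudocount of 1 TPM was added before log2 ratios were taken, which shrinks the ratios of weakly expressed genes, and a gene entered a comparison if either group reached 1 TPM. The limits of 20% lower or 25% higher, and of 1.5-fold, are rules of size, not tests. For count ratios, means were rounded and 95% Clopper-Pearson intervals (exact) computed given the summed count (scipy 1.17.1). The interval code was tested on simulated data. Mean totals were 15506686 to 15920306 counts. The intervals reflect counting error only, since each mean was taken for a single count. They also make no allowance for PCR duplicates, which are not separate molecules. The labels do not say whether replicates were separate cultures.

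Symbols and coordinates came from RefSeq GRCh38.p14, where 17672 of 17818 identifiers had a symbol. Promoters came from the same source. Near copies were sought with blastn 2.17.0 in GENCODE 29 transcripts, at 95% identity or more over at least 20% of the query. Scaling factors (TMM, RLE and upper quartile) came from edgeR 4.0.16 and were applied to the mean counts.

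The 58 genes, the other gene lists and the size rules were chosen with earlier results of these data known. Named genes were the 58, the 3 furthest below and the 3 furthest above control in each other cell-cycle list and line, all E2F and LIN genes, and USP51. Not every gene the rule takes is given with values. Marker genes and genes that overlap or copy a listed gene were named outside the rule.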

Additional observations from a re-analysis of the deposited data

How the results depend on the processing

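No paired analysis was possible because only group means could be tied to the groups, and leaving out single replicates was not run for the same reason. The alternatives were a pseudocount of 0.1, no filter on low values, CPM without factors and with TMM, RLE or upper-quartile factors, FPKM, curated transcripts alone, and sizes of 1.1-fold and 1.5-fold. The same 57 of 58 genes lay below control in SW480 under each setting of scaling, pseudocount, filter and transcripts. In any 1 of these settings 45.8% to 61.1% of all genes did. The number at least 20% lower in SW480, 27 as reported, was 17 with TMM (5.18% of all genes), 14 with RLE (4.93%) and 14 in FPKM (3.99%). It was 2 at 1.5-fold (0.879%) and 53 at 1.1-fold (25.7%). In HCT116 the number below control, 17 as reported, was 33 with TMM (51.3% of all genes), 31 with RLE (50.6%) and 26 with upper-quartile factors (47.9%). The number at least 20% lower in HCT116, 0 as reported, was 3 at 1.1-fold (9.47%). The number at least 25% higher there, 1 as reported, was 0 with TMM (8.25%), 0 with RLE (8.39%), 2 with curated transcripts (9.23%), 0 at 1.5-fold (1.96%) and 8 at 1.1-fold (26.9%). The median difference between the lines, -0.37 as reported, was -0.26 with TMM and -0.26 with RLE. The median of control levels, -0.02 as reported, was 0.10 with TMM and 0.10 with RLE. The median log2 ratio over all genes compared shifted as well. In SW480 it was -0.04 as reported and 0.01 with TMM, and in HCT116 0.04 and -0.006. The cause of these shifts was not tested. Counts behind the means limit the precision most for CDC25C, CENPI and other genes with few counts.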
